A study of Mus musculus with 6 samples.

Results

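The sodium-potassium ATPase and the scaffold of the axon initial segment were examined in hippocampal RNA through 5 genes, the pump's beta subunits *Atp1b1*, *Atp1b2* and *Atp1b3* and the scaffold genes *Ank3* and *Sptbn4*. They were taken by symbol from the 25239 genes of the counts because the pump and the initial segment have been described as altered in the hippocampus of Angelman syndrome models, and all 5 were listed and tested. Total RNA was sequenced from the hippocampus of 3 WT (Ube3am+/p+) and 3 Ube3am-/p+ mice, all male, on the C57BL/6 strain and aged 6 to 8 weeks, with 1 library per mouse and no other allele or treatment. Ube3am-/p+ mice lack a working maternal copy of *Ube3a*, a ubiquitin ligase gene that most neurons express only from the maternal chromosome, and keep the paternal copy. The tissue was whole hippocampus, so that fewer cells of a type and less RNA per cell cannot be told apart in any value below.

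The Na,K-ATPase moves sodium out of the cell and potassium in at the cost of ATP, and in neurons it restores the gradients that each action potential spends. A pump consists of an alpha subunit, which binds the ions and splits ATP, and a glycosylated beta subunit, which carries the alpha subunit to the membrane and sets its affinity for potassium. *Atp1b1* encodes the beta subunit of most neurons, *Atp1b2* a beta subunit prominent in glia that also serves as an adhesion molecule, and *Atp1b3* a more widely expressed beta subunit. The axon initial segment is the stretch of axon where action potentials start. *Ank3* encodes ankyrin-G, the master scaffold that holds sodium and potassium channels there, and *Sptbn4* encodes beta-IV spectrin, which ties ankyrin-G to the actin rings of the axon.

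None of the 5 genes passed the test between the genotypes, edgeR's quasi-likelihood test, where a call needed both an adjusted p (Benjamini-Hochberg) under 0.05 and more than a 1.2-fold difference. Over all 14445 genes tested, 2.01% were called. *Sptbn4* had the largest difference of the 5, with a log2 fold change of 0.43, followed by *Ank3* with -0.19 and *Atp1b1* with -0.13. *Atp1b2* (-0.0065) and *Atp1b3* (0.027) lay near 0. *Sptbn4* was also the only one of the 5 with an unadjusted p below 0.05 in edgeR, as had 24.6% of all genes tested. In none of the 5 did the CPM values of the genotypes (gene counts scaled to the same total in each library) stand fully apart, which they did in 25.0% of the genes tested.

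The transcripts of these genes differ in base composition, and the libraries differed in how expression followed it. *Sptbn4* has one of the most GC-rich transcripts of the hippocampus, with 63.7% G and C in its longest annotated transcript, above 99.2% of the tested genes. *Atp1b1* has 49.5%, *Atp1b2* 52.4%, *Atp1b3* 47.7% and *Ank3* 48.3%, between the percentiles 38.7 and 62.9. A coding stretch of 120 bases, taken within 1 exon where GC content came closest to that of the transcript, shows what this looks like for the scaffold genes and for the most abundant beta subunit. The sequences are from GENCODE M21 transcripts on GRCm38 (mm10, the build in the submitters' processing notes), and capitals mark runs of at least 4 G or C.
Sptbn4, exon 2, minus strand, chr7:27442446-27442565: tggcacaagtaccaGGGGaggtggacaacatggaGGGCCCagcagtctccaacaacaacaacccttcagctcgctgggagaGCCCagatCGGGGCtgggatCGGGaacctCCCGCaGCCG
Ank3, exon 29, plus strand, chr10:69958921-69959040: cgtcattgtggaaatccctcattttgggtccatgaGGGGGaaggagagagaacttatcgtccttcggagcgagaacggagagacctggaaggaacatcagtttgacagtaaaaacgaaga
Atp1b1, exon 2, minus strand, chr1:164453497-164453616: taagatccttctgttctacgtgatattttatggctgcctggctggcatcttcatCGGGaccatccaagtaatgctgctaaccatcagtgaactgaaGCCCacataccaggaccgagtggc

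The *Sptbn4* stretch holds 7 such runs with 33 letters, the *Atp1b1* stretch 2 runs with 8 letters and the *Ank3* stretch 1 run with 5 letters. Over the whole longest transcript, runs of this kind cover 28.2% of *Sptbn4*, 16.6% of *Atp1b1* and 11.6% of *Ank3*. Whether GC-rich genes ran high or low in a library was measured by Spearman's rho across genes, between GC content and the gene's departure from its 6-library mean. For WT mice 1, 2 and 3 this rho stood at 0.0455, -0.506 and -0.571. For Ube3am-/p+ mice 1, 2 and 3 it stood at 0.0588, 0.526 and 0.528. The mice numbered 1 thus lay near each other and between the remaining mice of the genotypes. Across genes, rho between GC content and the log2 fold change was 0.622, so that GC content moved with genotype in these libraries.

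The counts on genes numbered 7293272 to 11314409 per library, which put 794 to 19442 counts on each of the 5 genes in every mouse. *Ube3a*, the targeted gene, had 104, 141 and 151 CPM in WT mice and 96.8, 82.9 and 80.6 CPM in Ube3am-/p+ mice. It was called (log2 fold change -0.58, edgeR adjusted p = 0.0363), and every Ube3am-/p+ mouse lay below every WT mouse, though its transcript has 36.9% GC and the corrected value was -0.20 (adjusted p = 0.24, edgeR). Markers of neurons (*Rbfox3*, *Snap25*), hippocampal principal neurons (*Prox1*, *Neurod6*), astrocytes, oligodendrocytes, microglia and endothelium were all detected. The summed CPM of the 7 choroid plexus markers, *Ttr* among them, spread over 101 to 2186 among WT mice and 107 to 2279 among Ube3am-/p+ mice. All 7 markers of meninges and fibroblasts had positive log2 fold changes, with a median of 0.32, though their summed CPM overlapped between the genotypes. Of these, *Col1a1* was called (0.73, adjusted p = 0.0416, edgeR), and had 0.55 with the GC and length correction (adjusted p = 0.075, edgeR). The 6 neuron markers summed to 5024 to 5510 CPM in WT mice and 4567 to 4834 CPM in Ube3am-/p+ mice, and the 7 astrocyte markers to 4592 to 5120 CPM and 3987 to 4313 CPM, with 0 genes called in either list. The sums of the principal neuron, oligodendrocyte and microglia markers were likewise lower in every Ube3am-/p+ mouse than in every WT mouse. These sums rest mostly on the abundant markers, and single markers went both ways: 3 of the 6 neuron, 3 of the 6 oligodendrocyte, 3 of the 6 microglia, 2 of the 6 principal neuron and 2 of the 7 astrocyte markers had positive log2 fold changes, among them *Tubb3* (0.34, higher in every Ube3am-/p+ mouse) and *Rbfox3* (0.31), both uncalled. With the GC and length correction, *Tubb3* (57.9% GC) had 0.098 and *Rbfox3* (58.6% GC) 0.10. *Snap25* (38.7% GC) went from -0.23 to 0.070 with it, and *Aqp4* (41.4% GC) from -0.28 to -0.049. *Map2* kept -0.27, while *S100b* (-0.23 to -0.27) and *Mobp* (-0.24 to -0.33) moved farther from 0. The part of these sums in the results that follow was not tested.

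*Atp1b1* was the most abundant of the 5 genes. It lies on chromosome 1 from 164437109 to 164458355 on the minus strand of GRCm38. Its level was 1776, 2031 and 2113 CPM in WT mice 1, 2 and 3, and 1808, 1718 and 1817 CPM in Ube3am-/p+ mice 1, 2 and 3. WT mice 2 and 3 were above every Ube3am-/p+ mouse, while WT mouse 1 lay among them, so the genotypes overlapped. The means were 1974 ± 176 CPM (SD, n = 3) and 1781 ± 54.7 CPM (SD, n = 3). The log2 fold change was -0.13 (95% interval -0.31 to 0.052, adjusted p = 0.361, edgeR), and the exact permutation test over the mice gave a two-sided p of 0.3, where the smallest p that 3 mice against 3 allow is 0.1. With each library corrected for GC and transcript length, the log2 fold change was -0.14 (adjusted p = 0.405, edgeR). Exons of *Nme7*, on the opposite strand, overlap those of *Atp1b1* over 575 bp, and the strand setting of the counting is not given in the sources used here. *Nme7* itself had 163 ± 26.7 CPM (SD, n = 3) in WT and 122 ± 16.05 CPM (SD, n = 3) in Ube3am-/p+ mice and was not called (adjusted p = 0.0733, edgeR). Choroid plexus epithelium also makes this beta subunit. The part of the choroid plexus in the *Atp1b1* values was not tested.

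*Atp1b2*, on chromosome 11 from 69599736 to 69605942 (minus strand), had 588, 558 and 522 CPM in WT mice 1, 2 and 3. In Ube3am-/p+ mice 1, 2 and 3 it had 589, 514 and 537 CPM. The mice numbered 1 had the highest value of each genotype and differed by less than 2 CPM. The means were 556 ± 33.1 CPM (SD, n = 3) and 547 ± 38.8 CPM (SD, n = 3), which differed by less than the spread within either genotype. The log2 fold change was -0.0065 (95% interval -0.19 to 0.18, adjusted p = 0.972, edgeR; exact permutation test, two-sided p = 0.8). The interval bounds a difference of either sign at 0.19 on the log2 scale. *Atp1b2* overlapped between the genotypes, as did the astrocyte markers *Gfap*, *Aldh1l1* and *Slc1a3* taken singly. *Aqp4*, *Gja1*, *Slc1a2*, *S100b* and the summed astrocyte markers did not overlap.

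*Atp1b3*, on chromosome 9 from 96332655 to 96364442 (minus strand), was the least abundant beta subunit. It had 93.5, 106 and 112 CPM in WT mice 1, 2 and 3, and 107, 108 and 98.8 CPM in Ube3am-/p+ mice 1, 2 and 3. All 3 Ube3am-/p+ values fell inside the range of the WT values. The means were 104 ± 9.51 CPM (SD, n = 3) and 105 ± 5.07 CPM (SD, n = 3), and the log2 fold change was 0.027 (95% interval -0.17 to 0.22, adjusted p = 0.882, edgeR; exact permutation test, two-sided p = 0.8). Corrected for GC and length, the log2 fold change was 0.036 (adjusted p = 0.886, edgeR).

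**Figure D1:**
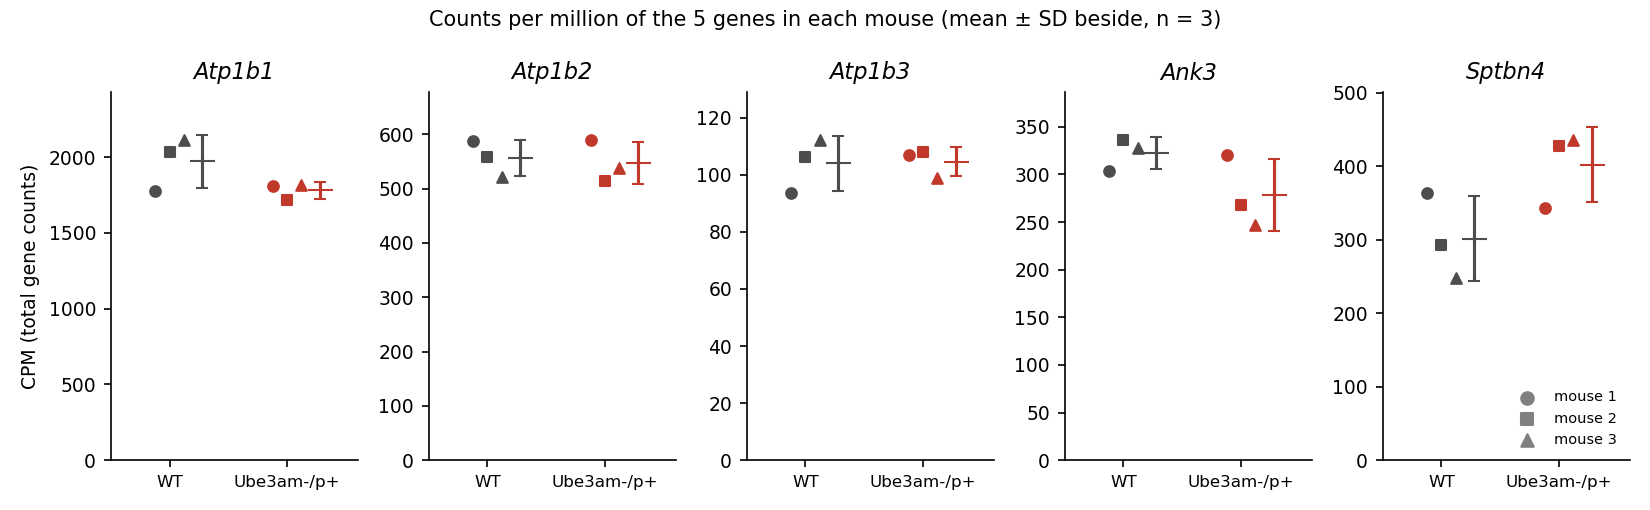
CPM on total gene counts (vertical axes, from 0) for the 5 genes in each WT (grey) and Ube3am-/p+ (red) mouse, with marker shapes for the mouse number and the mean and SD of 3 mice beside the points. The genotypes overlap in every panel. In *Ank3* and *Sptbn4*, Ube3am-/p+ mice 2 and 3 lie beyond the WT range and Ube3am-/p+ mouse 1 within it.

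The share of each beta subunit in the summed beta subunit CPM varied little. *Atp1b1* made up 72.3% to 76.9% of it in WT mice and 72.2% to 74.1% in Ube3am-/p+ mice, *Atp1b2* 19.0% to 23.9% and 21.9% to 23.5%, and *Atp1b3* 3.81% to 4.08% and 4.03% to 4.62%. The log2 ratio of *Atp1b1* to *Atp1b3* in the same library, which no library scaling can alter, was 4.25 ± 0.011 (SD, n = 3) in WT mice and 4.09 ± 0.11 (SD, n = 3) in Ube3am-/p+ mice. Every Ube3am-/p+ mouse had the lower ratio, a difference of -0.16 (exact permutation test, two-sided p = 0.1, adjusted p = 0.333 over the 10 pairs of genes). Between the log2 fold changes corrected for GC and length, the difference was -0.18. This pair was the only one of the 10 in which the genotypes did not overlap, and the remaining pairs had p of at least 0.2 (exact permutation test). Since 3 mice against 3 cannot give a p below 0.1, no pair could have passed, and the test decides nothing on these ratios.

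*Ank3* spans 629 kb of chromosome 10, from 69398773 to 70027438 on the plus strand, and has 31 annotated coding transcripts, which gene counts do not separate. It had 304, 336 and 327 CPM in WT mice 1, 2 and 3. In Ube3am-/p+ mice 1, 2 and 3 it had 320.3, 268 and 247 CPM. Ube3am-/p+ mice 2 and 3 lay below every WT mouse, and Ube3am-/p+ mouse 1 lay within the WT range. The means were 322 ± 16.8 CPM (SD, n = 3) and 279 ± 37.7 CPM (SD, n = 3), whose ratio is 0.864. The log2 fold change was -0.19 (95% interval -0.40 to 0.0074, adjusted p = 0.217, edgeR; exact permutation test, two-sided p = 0.2). Once each library had been corrected for GC and transcript length, it stood at -0.12 (adjusted p = 0.459, edgeR).

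*Sptbn4*, on chromosome 7 from 27356383 to 27447686 on the minus strand, had the widest relative spread of the 5 genes among WT mice, with a coefficient of variation of 19.3%. It had 364, 293 and 248 CPM in WT mice 1, 2 and 3, and 344, 427 and 436 CPM in Ube3am-/p+ mice 1, 2 and 3. Ube3am-/p+ mice 2 and 3 lay above every WT mouse, while Ube3am-/p+ mouse 1 lay below WT mouse 1. The means were 302 ± 58.3 CPM (SD, n = 3) and 402 ± 50.9 CPM (SD, n = 3), whose ratio is 1.33. The log2 fold change was 0.43 (standard error 0.13, 95% interval 0.14 to 0.72, adjusted p = 0.0838, edgeR; exact permutation test, two-sided p = 0.2). With the same correction it stood at 0.19 (standard error 0.085, adjusted p = 0.321, edgeR). Exons of *Gm20479*, on the same strand, overlap those of *Sptbn4* over 134 bp, and exons of *Gm44924*, on the opposite strand, over 243 bp. Neither of these genes is listed in the counts.

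The call of *Sptbn4* turned on the tool and on the mice numbered 1. DESeq2 called it with an adjusted p of 0.0196, in a fit that called 10.7% of the genes with an adjusted p. Without WT mouse 1 it was called at 0.59 on the log2 scale (adjusted p = 0.00456, edgeR), when 17.6% of all genes tested were called. Without Ube3am-/p+ mouse 1, *Sptbn4* (0.54, adjusted p = 0.0224, edgeR) and *Ank3* (-0.29, adjusted p = 0.0437, edgeR) were both called, among 12.5% of all genes tested. With both mice numbered 1 left out, a comparison of 2 mice against 2 chosen after the values were seen, the log2 fold changes were 0.69 for *Sptbn4* and -0.35 for *Ank3*, both called, beside 28.3% of all genes tested. In that comparison the 4 remaining libraries are those with the strongest relation of expression to GC content, so that genotype and GC relation cannot be told apart there.

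**Figure D2:**
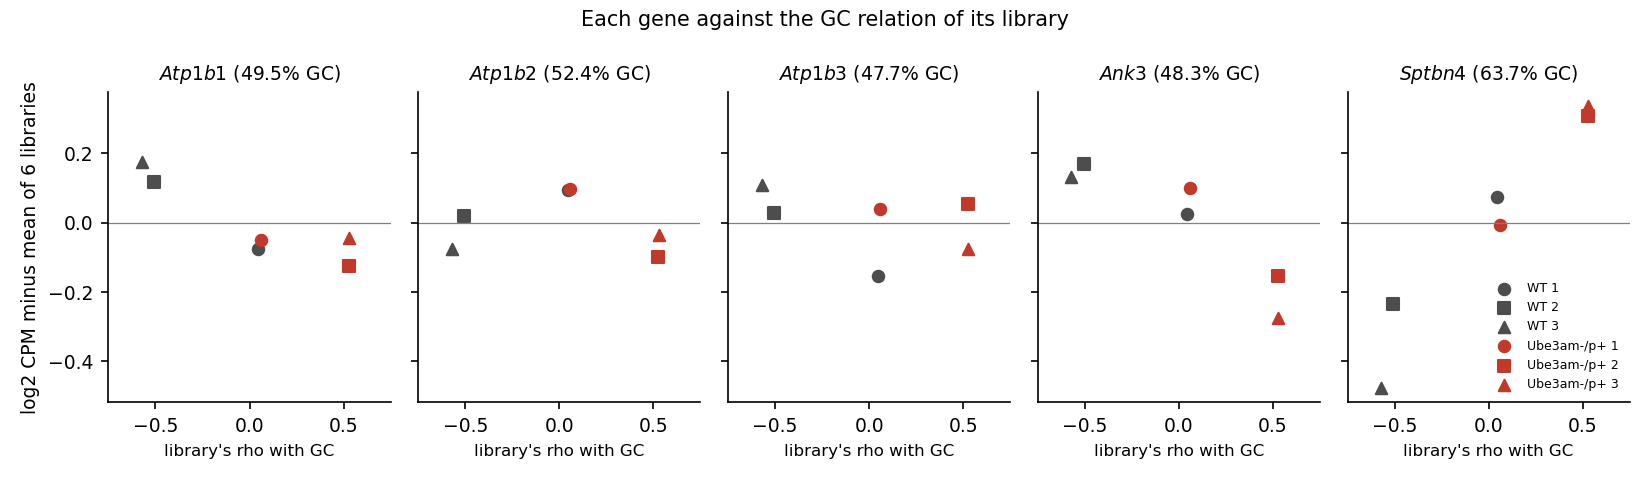
For each gene, log2 CPM minus the mean of the 6 libraries (vertical axis) against Spearman's rho between GC content and expression in that library (horizontal axis), with the GC content of the longest transcript in the panel title. *Sptbn4* is lowest in WT mice 2 and 3, where rho is -0.506 and -0.571, intermediate in both mice numbered 1, and highest in Ube3am-/p+ mice 2 and 3, where rho is 0.526 and 0.528.

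The scaffold genes thus lay on opposite sides of 0. The CPM ratio of *Sptbn4* to *Ank3* was 1.197, 0.872 and 0.757 for WT mice 1, 2 and 3. For Ube3am-/p+ mice 1, 2 and 3 it was 1.07, 1.59 and 1.76. The ratio overlapped between the genotypes through the mice numbered 1. As the log2 ratio of *Ank3* to *Sptbn4*, the difference was -0.64, the largest of the 10 pairs (exact permutation test, two-sided p = 0.2, adjusted p = 0.333), and the difference between the corrected log2 fold changes was -0.30. The ratio of *Atp1b1* to *Sptbn4* differed by -0.57 (exact permutation test, two-sided p = 0.2, adjusted p = 0.333).

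Levels of different genes were compared per kb of the longest annotated transcript. *Atp1b1* had 765 ± 68.1 CPM per kb (SD, n = 3) in WT mice and 690 ± 21.2 CPM per kb (SD, n = 3) in Ube3am-/p+ mice, and *Atp1b2* had 148 ± 8.81 and 146 ± 10.3 CPM per kb (SD, n = 3 each). *Atp1b3* followed with 52.1 ± 4.77 and 52.5 ± 2.54 CPM per kb (SD, n = 3 each). *Sptbn4* had 34.5 ± 6.66 and 46.0 ± 5.82 CPM per kb, and *Ank3* 32.4 ± 1.69 and 27.95 ± 3.78 CPM per kb (SD, n = 3 each). By this length, the values of *Sptbn4* and *Ank3* overlapped in WT mice but not in Ube3am-/p+ mice, and those of *Atp1b3* and *Sptbn4* overlapped in Ube3am-/p+ mice but not in WT mice, while the steps from *Atp1b1* to *Atp1b2* and from there to *Atp1b3* were wider than the spread in both genotypes. Per kb of merged exons the order was the same, but the level of *Ank3*, with its many exons, was 8.62 CPM per kb over the 6 mice against 36.8 CPM per kb for *Sptbn4*, and these genes overlapped in neither genotype.

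**Figure D3:**
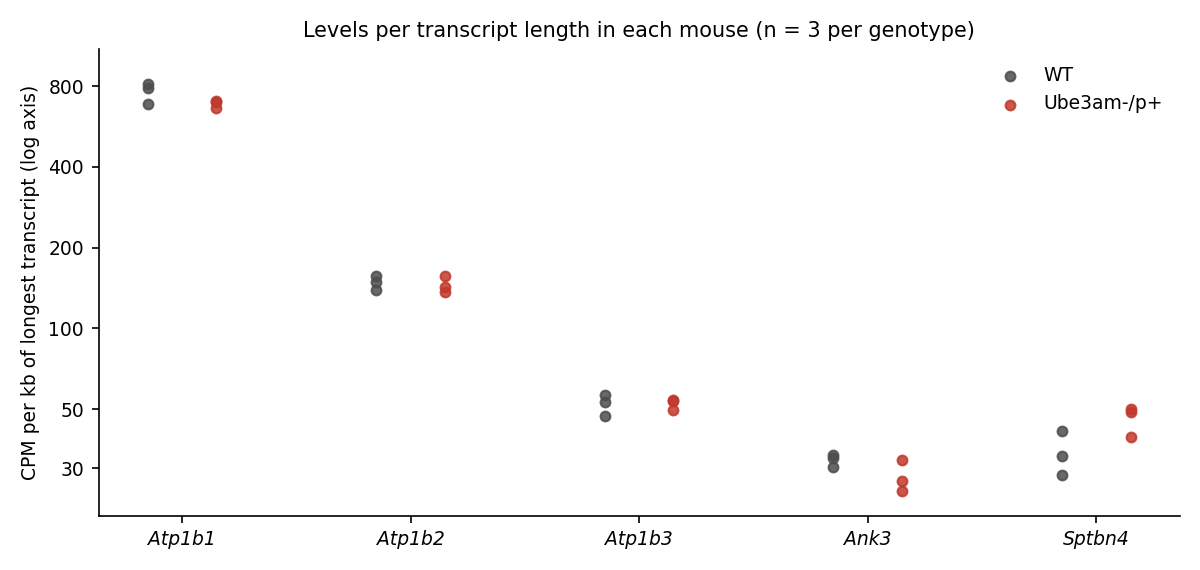
CPM per kb of the longest annotated transcript (log axis) in each WT (grey) and Ube3am-/p+ (red) mouse for the 5 genes. *Atp1b1* is the most abundant, *Atp1b2* lies near 147 CPM per kb, and *Ank3* and *Sptbn4* lie below 50.

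Small membrane proteins of the FXYD family bind the pump and tune it, and the Nkain proteins bind its beta subunit *Atp1b1*. Of 12 such genes with *Atp1b4*, 10 were tested, 9 had positive log2 fold changes and 1 was called. The median was 0.31, beside 0.0025 over all genes tested, and 0.015 with the GC and length correction. *Fxyd6*, a regulator of the pump in brain, was the gene called. It had 36.0, 33.2 and 39.4 CPM in WT mice 1, 2 and 3 and 47.5, 68.0 and 53.5 CPM in Ube3am-/p+ mice 1, 2 and 3, without overlap. It rose by a log2 fold change of 0.66 (95% interval 0.39 to 0.93, adjusted p = 0.0362, edgeR), and was the only gene of these lists called with the correction, at 0.66 (adjusted p = 0.0128, edgeR). Its transcript has 48.7% GC, close to that of *Ank3*. *Fxyd1*, also known as phospholemman, had 0.40, and *Fxyd7*, a brain FXYD protein, 0.29. *Fxyd2* (0.94), which modulates the pump in kidney, rested on 91 counts in all, and *Fxyd3* (0.44) on 347. *Fxyd5* had 0.023, *Nkain1* 0.069, *Nkain2* -0.17, *Nkain3* 0.34 and *Nkain4* 0.069. *Fxyd4* and *Atp1b4* had 8 and 0 counts. All but *Fxyd6* had adjusted p between 0.132 and 0.957 (edgeR).

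**Figure D4:**
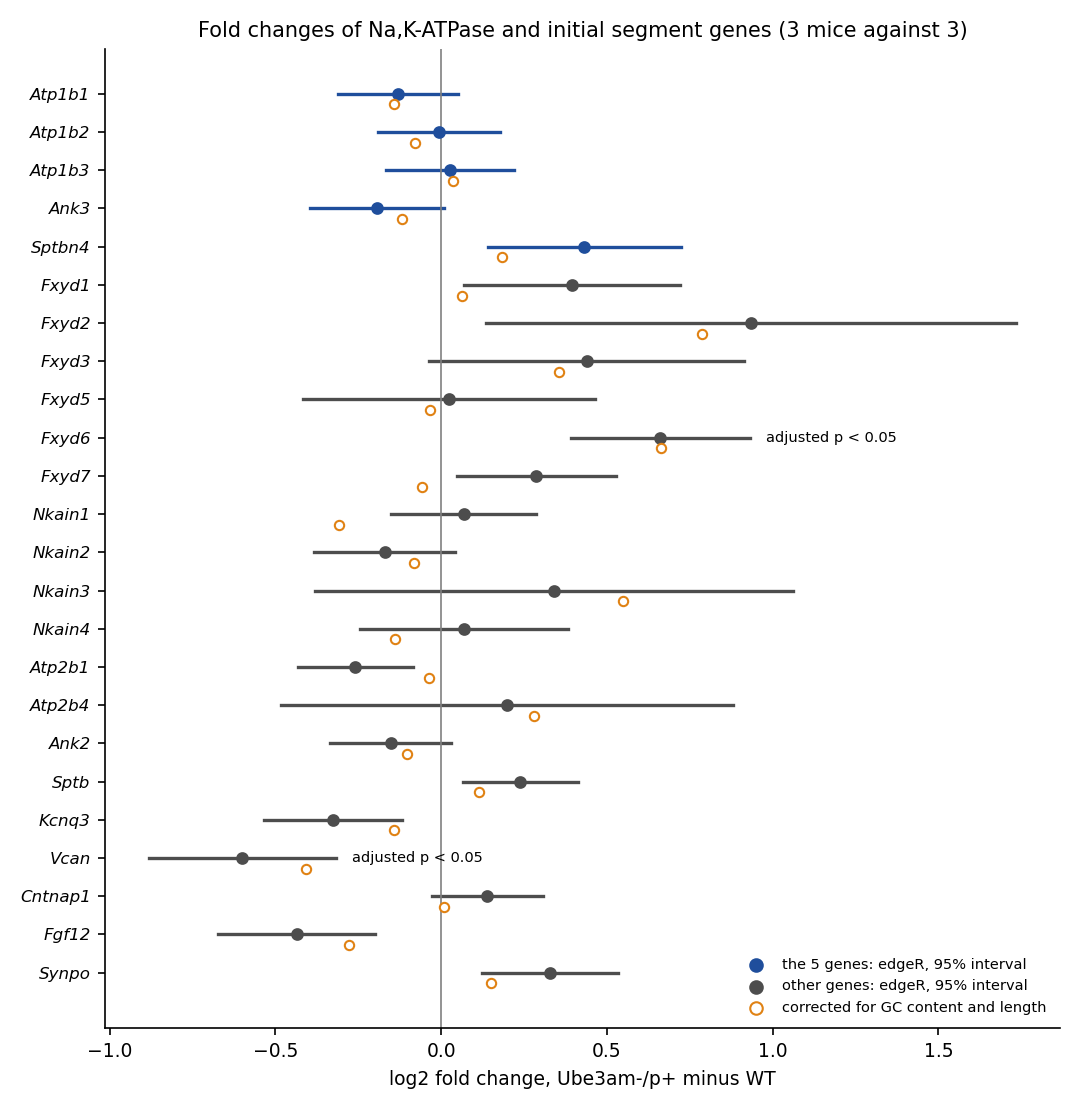
Log2 fold changes (Ube3am-/p+ minus WT, 3 mice against 3) with 95% intervals from edgeR for the 5 genes (blue), and for FXYD and Nkain genes and named genes of the remaining lists (grey), with the value corrected for GC and length as an open orange circle. *Fxyd6* and *Vcan* are the genes called, and for *Sptbn4* the open circle lies at 0.19 against 0.43.

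The initial segment genes were taken from 3 lists of channels, adhesion and matrix proteins, and cytoskeletal proteins and regulators. Of the 15 channel genes, all tested, none was called, and 10 had negative log2 fold changes. Over all genes tested, 50.35% had positive log2 fold changes. The median of the channel genes was -0.14, and -0.018 with the GC and length correction. The lowest was *Kcnq3*, a subunit of the potassium channel that ankyrin-G anchors, with -0.33 (adjusted p = 0.0703, edgeR). *Kcnq3* was lower in every Ube3am-/p+ mouse than in every WT mouse. With the GC and length correction *Kcnq3*, whose transcript has 44.4% GC, had -0.14.

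Of the 11 adhesion and matrix genes, *Vcan* was called. It encodes versican, a proteoglycan of the matrix around axons that oligodendrocyte precursors also make. *Vcan* had 27.3, 32.05 and 28.7 CPM in WT mice 1, 2 and 3 and 22.4, 18.8 and 16.4 CPM in Ube3am-/p+ mice 1, 2 and 3. It fell by 0.60 on the log2 scale (adjusted p = 0.0387, edgeR), and by 0.41 with the correction (adjusted p = 0.0756, edgeR). The highest gene of the list was *Cntnap1*, a paranodal adhesion protein, with 0.14 (adjusted p = 0.284, edgeR). *Nfasc* and *Nrcam*, the cell adhesion molecules that bind ankyrin-G, had 0.047 and -0.17 (adjusted p = 0.748 and 0.194, edgeR).

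Of the 17 cytoskeletal genes and regulators, 16 were tested and none was called. *Fgf12*, a growth factor homologue that binds sodium channels, was the lowest with -0.44 (adjusted p = 0.0513, edgeR), and *Synpo*, of the cisternal organelle, the highest with 0.33 (adjusted p = 0.0681, edgeR). *Trim46*, which bundles microtubules of the initial segment, had 0.27 (adjusted p = 0.164, edgeR). The 7 tested relatives of ankyrin-G and beta-IV spectrin included no called gene. *Ank2*, the ankyrin of the distal axon, was the lowest with -0.15 (adjusted p = 0.286, edgeR), and *Sptb*, the erythrocyte beta spectrin, the highest with 0.24 (adjusted p = 0.098, edgeR). Of the 8 related P-type ATPases, the 5 tested move calcium and none was called. Among them, *Atp2b1*, a plasma membrane calcium pump, had -0.26 (adjusted p = 0.078, edgeR) and *Atp2b4* 0.20 (adjusted p = 0.707, edgeR). With the GC and length correction, *Atp2b1* had -0.037, *Trim46* 0.053, *Sptb* 0.11, *Synpo* 0.15, *Ank2* -0.10 and *Fgf12* -0.28. *Atp2b4* had 0.28 with it, farther from 0 than before.

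Over the 75 genes of these lists, 67 were tested, 36 with positive and 31 with negative log2 fold changes, and 2 were called, *Fxyd6* upward and *Vcan* downward. The CPM of the genotypes did not overlap in 26 of the 67 (38.8%, beside the 25.0% of all genes tested). Without WT mouse 1, 15 were called, beside 17.6% of all genes tested, and without Ube3am-/p+ mouse 1, 14 were called, beside 12.5% of all genes tested. Without WT mouse 2 or 3 or Ube3am-/p+ mouse 2 or 3, none was called in edgeR, with 0 to 2 genes called among all those tested. In the same fits, *Sptbn4* kept an unadjusted p between 0.0235 and 0.0348 (edgeR) and a log2 fold change between 0.31 and 0.41.

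**Figure D5:**
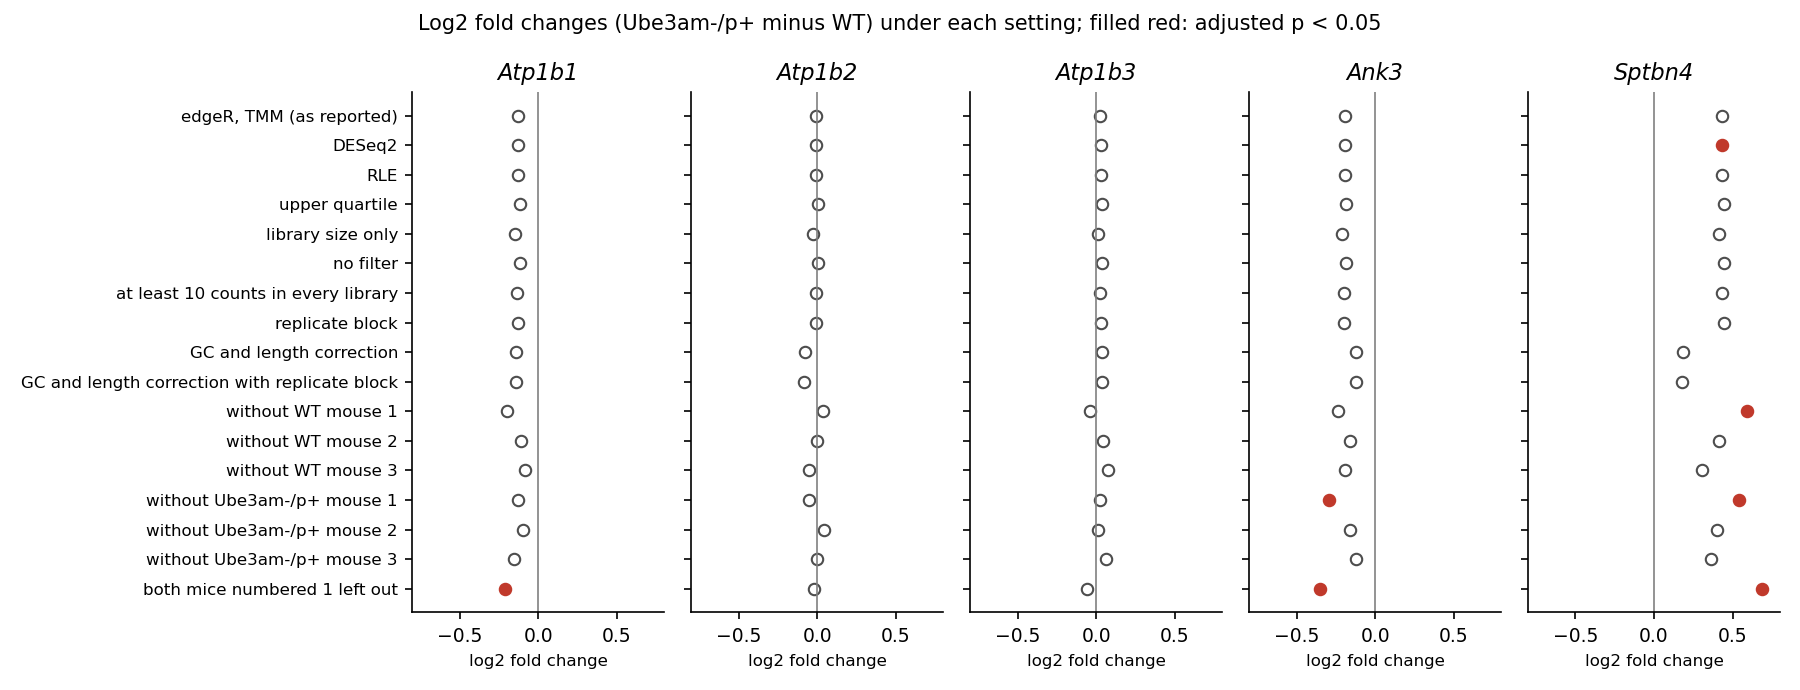
Log2 fold changes of the 5 genes (Ube3am-/p+ minus WT, horizontal axes) under each fit, one line per fit, with points of an adjusted p below 0.05 filled in red. *Atp1b1* is red without both mice numbered 1, where its fold change stayed under 1.2. *Sptbn4* runs from 0.18 to 0.69 and *Ank3* from -0.35 to -0.12 without a change of sign, while *Atp1b2* and *Atp1b3* take both signs close to 0.

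The genes whose level followed each of the 5 most closely were found by Pearson's r of log2 CPM over the 6 libraries, among 10421 genes with a mean of at least 10 CPM. With 6 libraries and so many genes compared, r reached at least 0.97 for every one of the 5, and all values share the depth and GC relation of the libraries. *Sptbn4* was followed by *Snrpd2*, *Klc1* and *Rasl10b* (r = 0.9995, 0.9989 and 0.9976), *Ank3* by *Prpf4b*, *Elovl6* and *Dgke* (0.9994, 0.9991 and 0.9967), and *Atp1b1* by *Selenof*, *Rraga* and *Tmem18* (0.9972, 0.9967 and 0.9962). *Atp1b2* was followed by *Champ1*, *Sst* and *Fam20a* (0.984, 0.982 and 0.982), and *Atp1b3* by *Zfp580*, *Trf* and *Rps7* (0.979, 0.972 and 0.970).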

How the data were processed

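The authors deposited raw counts per gene symbol, 1 library per mouse, made with STAR 2.7.4a and HTSeq on mm10 per the labels; the annotation, strand setting and HTSeq version are not given in the sources used here. Reads on no gene (54.1% to 55.05% of all reads listed) and other summary lines were left out. CPM were taken on total gene counts. In R 4.3.3, genes were kept by filterByExpr and tested with edgeR 4.0.16 (TMM, quasi-likelihood F test, robust, genotype only, two-sided, Benjamini-Hochberg over 14445 genes); standard errors come from the F statistic. DESeq2 1.42.0 was an alternative, with other scalings, filters, thresholds, a replicate block, each mouse left out, and a correction of each library by natural splines (5 degrees of freedom) on GC content and on length, both of the longest transcript per gene in GENCODE M21 (GRCm38, the same build; 98.3% of tested genes). Log2 CPM used a pseudocount of 0.5. With 1 library per mouse, the spread behind the p-values holds that between mice and that between libraries, which cannot be told apart.

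The members and lists were chosen with earlier results of these data known. Named genes are the 5 members, all called genes of the lists, all tested FXYD and Nkain genes, the lowest and highest gene of each other list with at least 10 CPM, the 3 most similar genes per member, and *Ube3a*. Genes that overlap a member were also named: *Nme7* for *Atp1b1*, and *Gm20479* and *Gm44924* for *Sptbn4*. *Nfasc*, *Nrcam*, *Trim46* and the markers were named for their function. Replicate numbers are taken from the labels, which state no pairing. Some genes of the lists that met this rule are counted but not reported here. The fits were tested on simulated data.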

Additional observations from a re-analysis of the deposited data

How the results depend on the processing

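The number of members called, 0 as reported, was 1 with DESeq2, 1 with the p unadjusted at the same fold change, 0 to 2 with 1 mouse left out, and 2 without both mice numbered 1 (added after seeing the data); every other fit gave 0. Of the other Na,K-ATPase and initial segment genes, 2 were called as reported, 8 with DESeq2 and 7 without a filter on low counts. With the p unadjusted at the same fold change, 15 were called. The share of all genes passing that threshold was not counted, so neither this number nor that of the members can be set against it. The replicate block gave 0, and the GC and length correction 1, alone or with the replicate block. With 1 mouse left out 0 to 15 were called, and 26 without both mice numbered 1, where 28.3% of all genes tested were called. All genes called numbered 290 of 14445 as reported, 961 of the 8989 with an adjusted p in DESeq2, 1176 of 19291 without a filter and 0 with the replicate block. With the GC and length correction they numbered 92 of 14201, and 13 with the replicate block added. At any fold change, an unadjusted p below 0.05 (edgeR) was found in 23 of the 67 tested list genes and in 24.6% of all genes tested. In sign, *Atp1b2* turned to 0.0051 with upper-quartile scaling, 0.0047 without a filter, and 0.038, 0.047 and 2.87e-05 without WT mouse 1, Ube3am-/p+ mouse 2 or Ube3am-/p+ mouse 3 (-0.055 to 0.047 over the mice left out). *Atp1b3* turned to -0.042 without WT mouse 1 (-0.042 to 0.079 over the mice left out) and -0.061 without both mice numbered 1. The ratio of *Atp1b1* to *Ank3* turned to -0.023 without Ube3am-/p+ mouse 3 (-0.023 to 0.17), and that of *Atp1b2* to *Atp1b3* to 0.080 without WT mouse 1 and 0.032 without Ube3am-/p+ mouse 2 (-0.14 to 0.080). The cause was not tested. *Atp1b1*, *Ank3* and *Sptbn4* kept their sign in all fits. With the replicate block *Sptbn4* had 0.44 (adjusted p = 0.227, edgeR), and 0.18 with the correction added (adjusted p = 0.521, edgeR). Same-numbered mice deviated from their genotype means with correlations of -0.285, -0.177 and -0.311 across genes, and 0 of 6 mice correlated best with their own number. These correlations cannot decide on a pairing, because the deviations of 3 mice from their own genotype mean sum to 0 and are tied to each other. In the GC relation, the mice numbered 1 lay apart from the rest of their genotypes in opposite directions. The part of the GC relation in these correlations was not tested. By the chi-square of counts per degree of freedom, the mice numbered 1 were the most alike of all pairs of libraries (3.92). The labels state no pairing, and the numbers were not taken as pairs.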
